A study of Mus musculus and Acomys cahirinus with 84 samples.

Results

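Primary skin fibroblasts of wild mice were compared with those of mice labelled C56BL6, in untreated cultures collected at 12 d. The members were chosen by their titles: 4 wild and 4 C56BL6 libraries, 8 of the 84 libraries of the series, and genes on chromosomes X and Y were left out. The series exposed mouse and African spiny mouse fibroblasts to ionizing radiation, and the 8 libraries here received none. They were made from mRNA with a stranded kit and carry the same batch label. The labels name no transgene and no added agent, and give no age, sex, site on the skin or place of capture. They name each C56BL6 and each wild library with an animal code of its own. Groups labelled untreated and passaged (12 d) and untreated at 24 h, 4 libraries per population each, are set beside the comparison where stated. They come from the same animal codes, and the 24 h libraries carry another batch label.

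C56BL6 is the spelling of the labels for a laboratory mouse strain, whose animals are close to genetically identical after inbreeding. Wild mice are outbred, so wild animals differ from each other as well as from a laboratory strain. The mouse reference genome was built from the strain C57BL/6J. Processed pseudogenes are copies of an mRNA that were written back into the genome by reverse transcription, and they lack the introns of the parent gene. Such copies can be nearly identical to the parent in sequence.

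Total counts were 28.27 to 32.35 M in the C56BL6 libraries and 23.14 to 30.19 M in the wild libraries, and 3 counts corresponded to 0.096 to 0.136 CPM (counts scaled to the total of the library). Summed levels of 10 fibroblast markers were 34900 to 56400 CPM in C56BL6 and 18300 to 81400 CPM in wild libraries. The leukocyte genes Ptprc and Tyrobp and the melanocyte and Schwann cell gene Sox10 were at 0 CPM in all 8 libraries. Other members of these marker lists were counted. The sum of 8 macrophage markers was 16.3 to 43.6 CPM in C56BL6 and 17.7 to 48.6 CPM in wild, with Csf1r at 32.8 CPM in wild replicate 4. The Schwann cell marker Ngfr was 34 and 36.5 CPM in wild replicates 1 and 4, and at most 6.34 CPM elsewhere. C56BL6 replicate 1 stood apart with keratinocyte genes: Krt14 was 431 CPM and Krt5 was 425 CPM there, against at most 0.0736 CPM in the other 7 libraries. The sum of 8 keratinocyte markers was 958 CPM in that library, 2.41 CPM in the lowest C56BL6 library, and 2.08 to 6.65 CPM in the wild libraries. Of these markers, Krt1 was at 0 in all 8 libraries. Wild replicate 3 also stood apart, with 32.76 CPM of the stromal surface gene Ly6a, against 1797 to 2044 CPM in the other wild libraries. Counts are also given with these 2 libraries left out, a choice made after their values were seen. In bulk RNA, fewer cells of a type and less RNA per cell cannot be told apart.

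The wild libraries were not alike. Wild replicates 1 and 4 correlated at r = 0.992 over log2(CPM + 1), and no gene reached 2 CPM in one of them with 0 counts in the other. Among the other wild pairs r was 0.905 to 0.952, and 51 to 113 genes were on in one library and at 0 in the other. The C56BL6 pairs other than those with replicate 1 had r between 0.987 and 0.995 and 1 such gene each. These correlations run across genes that share their library and are a description. The labels give wild replicates 1 and 4 different animal codes, and they were counted as 2 libraries. Their counts differed by 34.8 times sampling noise (chi-square per degree of freedom). The other wild pairs differed by 208 to 572 times and the C56BL6 pairs by 17.2 to 274 times. By this measure too they were the closest of the wild pairs, but it cannot show whether they are independent. Whether they come from related animals was not tested.

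Genes that differed between the populations included near-identical copies of other genes and, among single genes, Plagl1, Cdkn1a, Aldh1a1 and Slc7a11. Between the populations, 398 of 13785 genes tested passed an adjusted p of 0.05 (2.89%) in edgeR's quasi-likelihood test with Benjamini-Hochberg adjustment. Of these, 219 were higher in wild fibroblasts (1.59% of genes tested) and 179 were lower (1.3%), and 330 differed at least 2-fold. In 397 of the 398 genes, all 4 libraries of one population lay above all 4 of the other, which held for 1458 genes (10.6%) among all tested. The median log2 fold change of all genes was 0.01. With C56BL6 replicate 1 and wild replicate 3 left out, 1777 of 13866 genes passed (12.8%), 832 higher and 945 lower, and 394 of the 398 were among them in the same direction. Without C56BL6 replicate 1 alone 620 genes passed, and without wild replicate 3 alone 874. Both fits without wild replicate 3 kept wild replicates 1 and 4, the pair at r = 0.992, whose closeness can narrow the wild spread. How far that raised the counts was not tested. The 394 genes rest on libraries of the main fit and are no independent support. Without C56BL6 replicates 2, 3 and 4 in turn, 214, 221 and 227 passed, and without wild replicates 1, 2 and 4 in turn, 256, 474 and 244. With the counts of wild replicates 1 and 4 summed, 261 genes passed.

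**Figure D1:**
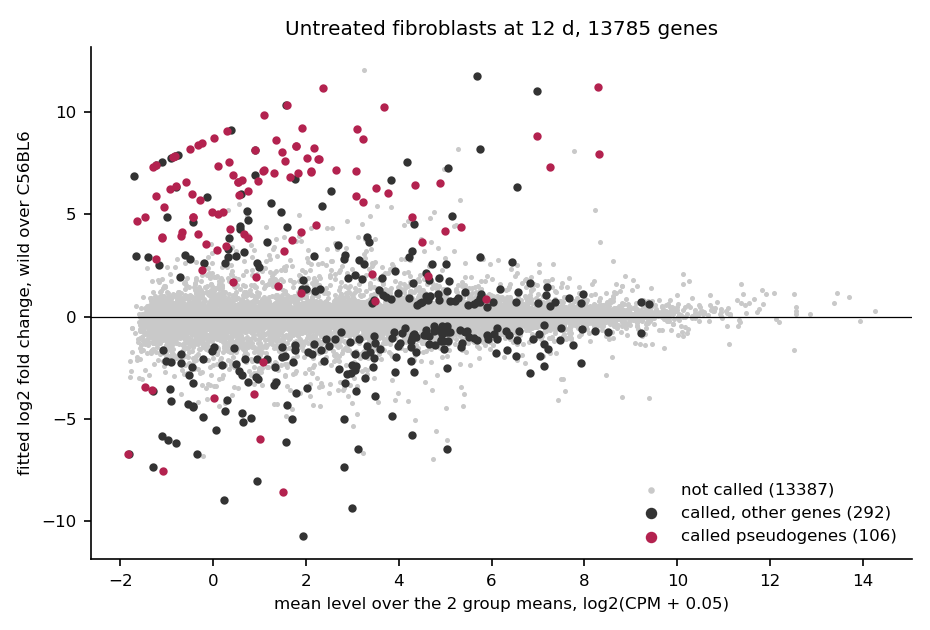
Each point is a gene; the x axis gives its mean level over the 2 group means as log2(CPM + 0.05), and the y axis the fitted log2 fold change of wild over C56BL6. Most of the 106 called pseudogenes lie far above 0, and the 292 other called genes lie on both sides.

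Pseudogenes made up a large share of the genes higher in wild fibroblasts. Of 400 pseudogenes tested, 106 passed (26.5%, against 2.89% of all genes), 97 higher and 9 lower in wild. The expression filter keeps a gene counted in either population alone, so copies near 0 in both are not among the 400, which raises this share. Without the filter, 120 of 3352 pseudogenes were higher and 10 lower, and 418 of 26659 genes passed. Protein-coding genes passed in 259 of 12193 cases (2.12%), 113 higher and 146 lower, and long noncoding RNA genes in 30 of 990 (3.03%), 8 higher and 22 lower. The processed pseudogenes alone, transcribed or not by their annotation, gave 93 calls among 347, of which 90 were higher. Without the 2 libraries that stood apart, 126 of 399 pseudogenes were higher and 19 lower, a setting in which 12.8% of all genes passed. Called pseudogenes lay on 18 chromosomes.

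A called pseudogene was set beside the closest protein-coding gene, here its parent, where their reference transcripts matched at 95% identity or more over at least 50% of the shorter transcript. Of the 106 called pseudogenes, 73 had such a parent that was tested, and 69 of these 73 were higher in wild. The 69 copies had a median identity of 98.6% to 66 different parents. Their median log2 fold change was 6.59, and that of the parents was -0.19. Of the parents, 56 did not pass the test, 8 were lower and 2 were higher in wild. The 2 that were higher were Gstp1 and Eno1b. Eno1b counts as a parent by its protein-coding annotation, but it is itself 99.4% identical to Eno1, whose log2 fold change was 0.06. When the CPM of parent and copy were added, the median log2 ratio of wild to C56BL6 over the 69 pairs was 0.06. The median level of a copy was 7.01% of its parent's in wild and 0.0679% in C56BL6, so most sums follow the parent. Reads that align to several places were not counted per the recorded command, so a copy's count rests on reads that the aligner placed at 1 locus. How many reads of a parent were placed at its copy, or the reverse, in either population was not tested.

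Of the pairs shown, 4 hold the called pseudogenes with the highest mean level in wild, and the fifth holds Rbpj, a parent that itself passed. They were chosen after their values were seen. For 3 of them, 90 bases of the parent's coding sequence are shown with the same stretch of the copy, because a read from such a stretch can be told apart only by the letters that differ. The letters are 5′ to 3′ from GENCODE transcripts of the GRCm39 build, the reference and not the animals' own sequence, and capitals mark the bases that differ. Gapdh, a glycolytic enzyme gene, lies at chr6:125138678-125143430 and its copy Gm13394 at chr2:28823622-28824621; over 999 coding bases they differ at 1. The stretch covers coding bases 301 to 390.
Gapdh: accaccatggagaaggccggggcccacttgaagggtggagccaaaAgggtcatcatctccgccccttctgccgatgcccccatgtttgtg
Gm13394: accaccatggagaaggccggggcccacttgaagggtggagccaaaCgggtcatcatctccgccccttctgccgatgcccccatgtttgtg
Rpsa, which encodes a protein of the small ribosomal subunit, lies at chr9:119956755-119961435 and its copy Rpsa-ps10 at chr3:149778295-149779179; over 885 coding bases they differ at 6, and the stretch covers coding bases 169 to 258.
Rpsa: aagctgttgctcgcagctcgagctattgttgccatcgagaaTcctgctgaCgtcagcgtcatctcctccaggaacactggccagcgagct
Rpsa-ps10: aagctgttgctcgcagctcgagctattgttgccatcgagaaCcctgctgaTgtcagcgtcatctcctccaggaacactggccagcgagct
Rbpj, which encodes the DNA-binding partner of activated Notch receptors, lies at chr5:53623494-53814704 and its copy Rbpj-ps3 at chr6:46506288-46507728; over 1441 aligned coding bases they differ at 4, and the stretch covers coding bases 925 to 1014.
Rbpj: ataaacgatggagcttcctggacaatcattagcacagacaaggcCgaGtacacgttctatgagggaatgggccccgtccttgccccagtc
Rbpj-ps3: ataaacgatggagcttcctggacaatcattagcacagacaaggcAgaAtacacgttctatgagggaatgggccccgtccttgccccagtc

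The Gapdh copy Gm13394 was 0.3037, 0.3154, 0.1253 and 0.2834 CPM in C56BL6 replicates 1 to 4 and 550, 678, 646.8 and 646.5 CPM in wild replicates 1 to 4. The wild libraries lay close together and far above all C56BL6 libraries (log2 fold change 11.24 ± 0.31 SE, edgeR adjusted p = 3.44e-06). Gapdh itself averaged 1510 ± 265 CPM (SD, n = 4) in C56BL6 and 1307 ± 109 CPM in wild, which did not pass (log2 fold change -0.21, adjusted p = 0.647). Summed over both loci the level was 1511 ± 265 CPM in C56BL6 and 1937 ± 150 CPM in wild, a log2 ratio of 0.36. The sums overlapped between the populations through C56BL6 replicate 1, at 1905 CPM. They leave out other copies of Gapdh, such as Gm12070, which is 99.9% identical to it. Gm12070 also passed but went the other way, from 3.365 CPM in C56BL6 to 0.2376 CPM in wild (log2 fold change -3.79 ± 0.346 SE, edgeR adjusted p = 0.000938).

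Rpsa-ps10 was 2.299 to 3.037 CPM in C56BL6 and 824.7, 605.2, 393.3 and 709.9 CPM in wild (log2 fold change 7.95 ± 0.306 SE, adjusted p = 1.27e-05), with Rpsa at 1365 ± 212 and 1286 ± 180 CPM. Gm15459, a copy of the chaperone gene Hspa8, was 1.887 ± 0.868 CPM in C56BL6 and 305.4 ± 22.5 CPM in wild. The sums of these 2 pairs had log2 ratios of 0.49 and 0.07. Gm15772, a copy of the ribosomal protein gene Rpl26, was the called pseudogene whose populations overlapped. It was 419.2, 171.2 and 414.5 CPM in wild replicates 1, 3 and 4 but 0.722 CPM in wild replicate 2, within the C56BL6 range of 0.2834 to 1.08 CPM. Rpl26 ran the other way among the wild libraries: 123.9, 294.3 and 133.5 CPM in replicates 1, 3 and 4, and 415.1 CPM in replicate 2, within the C56BL6 range of 405.6 to 552.6 CPM. Summed, the pair was 415.8 to 548 CPM in wild and 406 to 553.7 CPM in C56BL6, and the populations overlapped.

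**Figure D2:**
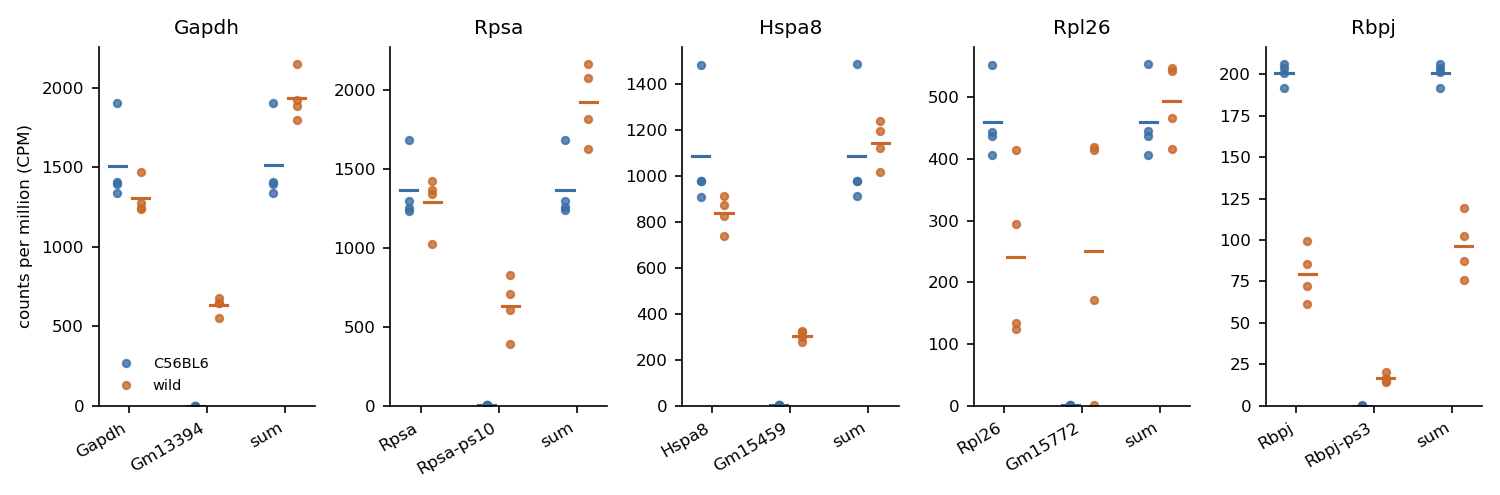
Level in CPM of 5 parent genes, their near-identical copies and the sum of both, with a point for each library and a line at the mean of 4. Copies sit near 0 in all C56BL6 libraries and above them in wild, except for Gm15772 in 1 wild library, and the sums overlap between the populations for 4 parents but not for Rbpj.

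For Rbpj and Rpl29 the sum over gene and copies was also lower in wild in all libraries. Rbpj was 191.8 to 206.1 CPM in C56BL6 and 61.36 to 99.37 CPM in wild (log2 fold change -1.33 ± 0.152 SE, adjusted p = 0.00271), while Rbpj-ps3 averaged 16.59 CPM in wild. The sum was 200.8 ± 6.25 CPM in C56BL6 and 96.25 ± 18.9 CPM in wild. Rpl29, a ribosomal protein gene with 31 near-identical copies in the table, was 166.4 to 239.8 CPM in C56BL6 and 24.75 to 39 CPM in wild (log2 fold change -2.77 ± 0.193 SE, adjusted p = 0.000315). With the 2 of its copies that were tested, the sum was 34.36 ± 7.83 CPM in wild against 198.2 ± 30.9 CPM in C56BL6. Copies too low to be tested are not in that sum. Over all genes kept by the expression filter, 144 of 1671 with a near-identical copy passed (8.62%), against 254 of 12114 without one (2.1%). Of the 254, 115 were higher and 139 lower in wild.

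The 8 protein-coding genes with the largest differences in each direction, among those with separate populations and a mean of at least 5 CPM, are described next. Of the 8 that were higher in wild, 3 are annotated as protein-coding but are near-identical to another gene. Eno1b, 99.4% identical to the enolase gene Eno1, was 0.1253 to 0.6412 CPM in C56BL6 and 84.88 to 128.9 CPM in wild, with an Eno1 log2 fold change of 0.06. Tpm3-rs7, 98.8% identical to the tropomyosin gene Tpm3, was 0.3037 to 0.6297 CPM in C56BL6 and 40.43 to 86.25 CPM in wild, with Tpm3 at 257.3 and 148 CPM. Rnf26rt, 99.2% identical to the ubiquitin ligase gene Rnf26, was at most 0.06749 CPM in C56BL6 and 5.258 to 8.574 CPM in wild. Rnf26 itself averaged 2.864 CPM in C56BL6 and 0.4449 CPM in wild and did not pass (adjusted p = 0.124).

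The other 5 have no near-identical copy in the table. Ifi202b, a member of the interferon-inducible family of DNA-binding sensors, was 155.4, 22.7, 86.82 and 147.2 CPM in wild replicates 1 to 4. It had 3 counts in all C56BL6 libraries together and 10737 in the wild ones, a ratio of 3930 with an exact 95% counting interval of 1350 to 19100 (edgeR adjusted p = 0.000867). Mndal, of the same family and also on chromosome 1, named here after its values were seen, fell from 28.14 to 39.45 CPM in C56BL6 to 3.249 to 7.341 CPM in wild (log2 fold change -2.69 ± 0.293 SE, adjusted p = 0.00218). Cd200, a surface glycoprotein that restrains myeloid cells, was at most 0.4387 CPM in C56BL6 and 44.82, 403.6, 509 and 48.6 CPM in wild. Wild replicates 1 and 4 were alike in Cd200 and about an order of magnitude below the other 2.

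Pgcka1 had 0 counts in C56BL6 and 1.833 to 16.06 CPM in wild, at least 204-fold higher over the group at a floor of 3 counts. Galnt9, which encodes a transferase that starts O-linked sugar chains, was 0.03375 to 0.5014 CPM in C56BL6 and 1.574 to 67.15 CPM in wild. Chi3l1, a secreted chitinase-like protein gene, was at most 0.2804 CPM in C56BL6 and 2.11 to 23.14 CPM in wild. Of the 8 fits that left out 1 library, Pgcka1 and Galnt9 each passed in 3 and Chi3l1 in 5. Adjusted p reached 0.088 for Pgcka1, 0.11 for Galnt9 and 0.061 for Chi3l1.

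Plagl1, an imprinted zinc finger gene, was the gene with the smallest SE among the 8 that were lower. It was 39.75, 52.12, 27.42 and 34.38 CPM in C56BL6 and 0.5505, 0.5415, 0.6364 and 1.038 CPM in wild (log2 fold change -5.78 ± 0.318 SE, adjusted p = 7.04e-05). It passed in every fit that left out 1 library. Trim12a, of the TRIM5-like antiviral gene cluster on chromosome 7, was 10.7 to 16.91 CPM in C56BL6 and at most 0.2256 CPM in wild (adjusted p = 0.000938). In the same gene cluster, Trim30a fell from 10.02 to 17.32 CPM in C56BL6 to 1.005 to 4.175 CPM in wild, and Trim34b, chosen after its values were seen, rose from at most 0.2507 CPM to 1.522 to 3.115 CPM. Both have near-identical copies, 15 for Trim30a and 2 for Trim34b. Trim12a has none by the length limit used here. It matches Trim5 at 96.9% identity over 26.1% of the shorter transcript, and Trim12c at 96.5% over 25.3%. How reads were shared among these genes was not tested. Trim34a, 98.3% identical to Trim34b, averaged 3.304 CPM in C56BL6 and 1.771 CPM in wild and did not pass (adjusted p = 0.146).

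Ednrb, the endothelin receptor of neural crest cells, was 6.817, 1.437, 35.72 and 19.02 CPM in C56BL6, and 2 reads in all were counted in wild. Pax3, a transcription factor gene of neural crest and muscle precursors, was 10.23, 7.571, 1.065 and 4.156 CPM in C56BL6 and at most 0.2075 CPM in wild. Esm1, which encodes the secreted proteoglycan endocan, was 1.417 to 16.23 CPM in C56BL6 and had 0 counts in wild, at least 282-fold lower over the group at the same floor. The sum of 6 melanocyte markers was 3.29 to 3.8 CPM in C56BL6 and 1.89 to 4.0 CPM in wild, with Tyrp1 and Sox10 at 0 in all 8 libraries. The C56BL6 libraries spread widely in Ednrb, Pax3 and Esm1. Pax3 passed in 5 and Esm1 in 2 of the 8 fits that left out 1 library (adjusted p up to 0.087 and 0.12).

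Elobl, an elongin B-like gene, was 9.078 to 127.8 CPM in C56BL6 and 0.3212 to 1.173 CPM in wild. Rgs8, a regulator of G-protein signalling, was 0.7424 to 32.02 CPM in C56BL6 and at most 0.367 CPM in wild. It passed in 2 of the 8 fits that left out 1 library (adjusted p up to 0.098). Raet1d, a ligand of the activating receptor NKG2D, was 35.57 CPM in C56BL6 replicate 1, the library with keratinocyte genes, and 5.353 to 7.36 CPM in the other C56BL6 libraries, against 0.2767 to 0.5024 CPM in wild. Its call was lost without wild replicate 4 (adjusted p = 0.0513).

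**Figure D3:**
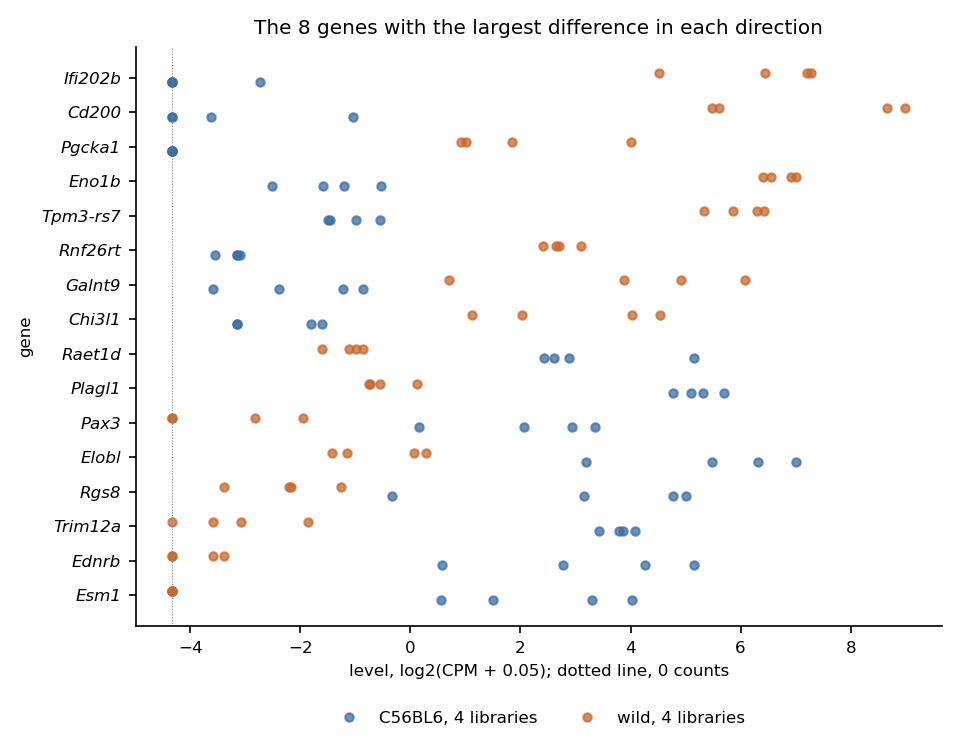
Levels of the 16 genes in each library as log2(CPM + 0.05), 4 points per population; the dotted line marks 0 counts. No gene has overlapping populations, and the spread within a population exceeds 10-fold for several of them, such as Cd200 in wild and Ednrb in C56BL6.

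The transcription factor p53 switches on genes that arrest or kill stressed cells. Of 24 measured members of the 25-gene list, 5 fell, none rose and 19 did not pass, with a median log2 fold change of -0.74 against 0.01 for all genes. The list's share of calls was 20.8%, against 2.89% of all genes. Cdkn1a, which encodes the cell cycle inhibitor p21, was 301.4, 556.8, 400 and 365.9 CPM in C56BL6 and 85.93, 38.85, 130.4 and 76.83 CPM in wild. The lowest C56BL6 library was more than 2-fold above the highest wild one (log2 fold change -2.29 ± 0.366 SE, adjusted p = 0.0143). Cdkn1a passed in 6 of the 8 fits that left out 1 library, with an edgeR adjusted p of 0.0599 without wild replicate 4. Phlda3, an inhibitor of Akt signalling, averaged 160.3 CPM in C56BL6 and 75.84 CPM in wild (adjusted p = 0.00932), and Zmat3, an RNA-binding protein gene, averaged 128.1 and 58.29 CPM (adjusted p = 0.0146).

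The other 2 that fell were Pmaip1, a BH3-only cell death gene, from 3.054 to 9.854 CPM to at most 0.4689 CPM, and Trp53inp1, from 66.11 to 154.3 CPM to 23.47 to 51.89 CPM. Members that did not pass included Mdm2, the ubiquitin ligase of p53, with a log2 fold change of -0.75 (adjusted p = 0.0892), and Gdf15, with 1.74 (adjusted p = 0.547). Trp53 itself averaged 65.65 CPM in C56BL6 and 69.49 CPM in wild. C56BL6 replicate 2 was the highest C56BL6 library in 20 of the 24 members, among them Cdkn1a, Phlda3 and Zmat3. The epithelial gene Perp, also on the list, was 206.7 CPM in C56BL6 replicate 1 and at most 3.26 CPM elsewhere. Without C56BL6 replicate 1 and wild replicate 3, 8 members fell and none rose, where 12.8% of all genes passed. Leaving out 1 library at a time left 2 to 7 calls, all lower, and summing wild replicates 1 and 4 left 3.

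Genes of cholesterol synthesis and uptake are switched on together by SREBP2 when membranes run short of sterol. All 23 listed genes were measured and all 23 had a negative log2 fold change, from -3.28 to -0.20, with a median of -0.79; 5 fell, none rose and 18 did not pass (21.7% called). Sqle, the squalene epoxidase gene, was 128.6, 106.1, 105.2 and 91.28 CPM in C56BL6 and 54.6, 52.39, 57.64 and 64.58 CPM in wild (log2 fold change -0.91 ± 0.126 SE, adjusted p = 0.0074). Hmgcs1, an early enzyme gene of the pathway, was 81.6 to 108.9 CPM in C56BL6 and 32.08 to 50.04 CPM in wild (adjusted p = 0.0105). The sterol carrier gene Stard4, the reductase gene Hsd17b7 and Insig1, a feedback inhibitor of SREBP processing, were the other 3. Stard4 passed in 3 of the 8 fits that left out 1 library, and Sqle and Hmgcs1 in all 8.

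Wild replicate 3 was the highest wild library in 16 of these 23 genes. In Sc5d, a late enzyme, it held 107.3 CPM against 28.56 to 33.12 CPM in the other wild libraries and 69.43 to 99.3 CPM in C56BL6. C56BL6 replicate 2 was the highest C56BL6 library in 16 of them, and C56BL6 replicates 3 and 4 in none. Without wild replicate 3 and C56BL6 replicate 1, a setting in which 12.8% of all genes passed, 14 of the 23 fell and none rose. Leaving out 1 library at a time gave 2 to 12 calls, and summing wild replicates 1 and 4 gave 2.

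**Figure D4:**
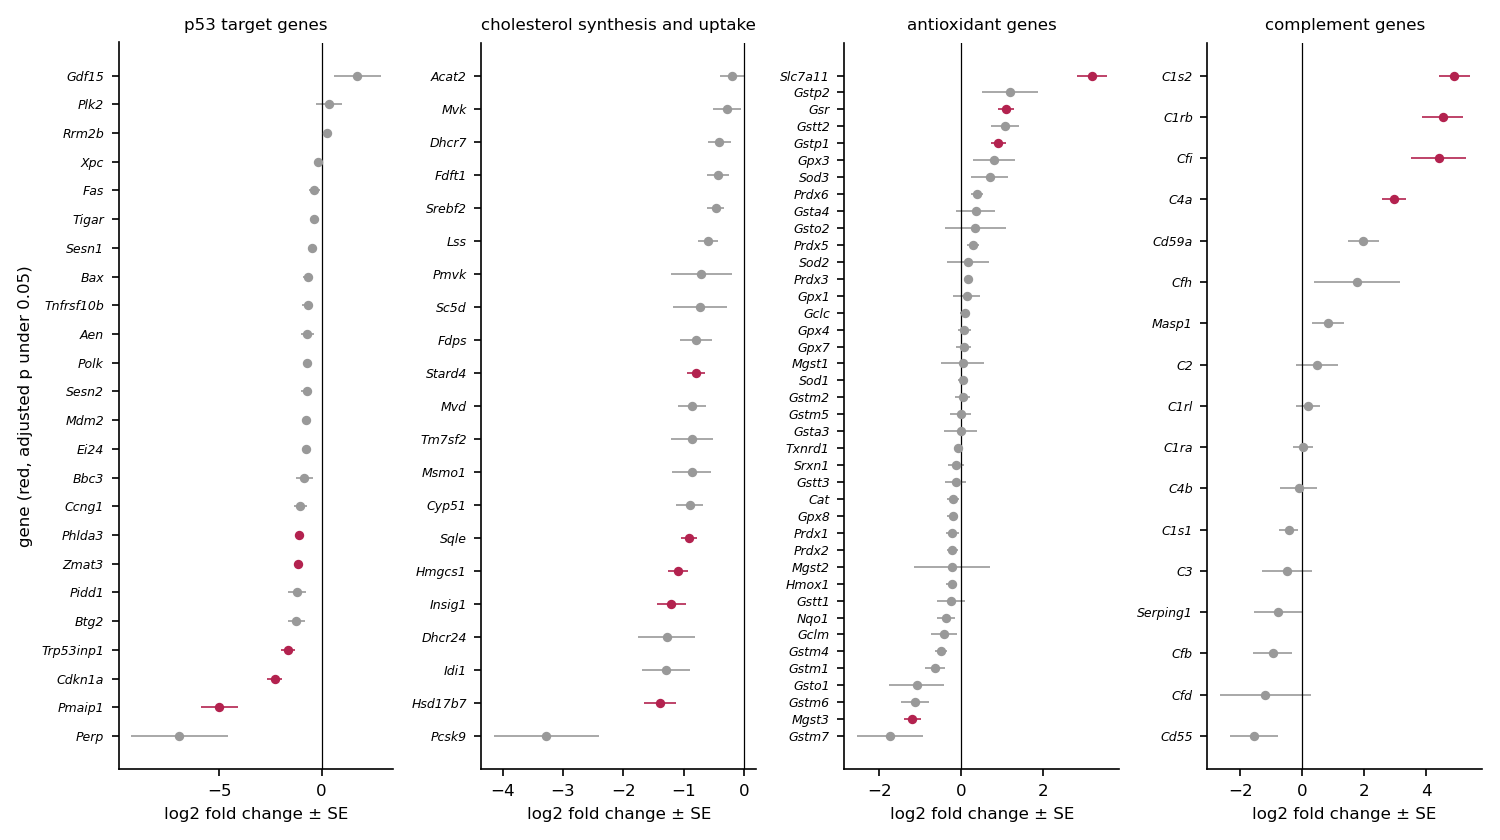
Fitted log2 fold change of wild over C56BL6 with its SE for measured members of 4 gene lists (21 of the 23 cholesterol genes are drawn); red points passed an adjusted p of 0.05. All cholesterol genes drawn lie left of 0, 21 of 24 p53 targets do, and antioxidant and complement genes lie on both sides.

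In the antioxidant list, 3 of 40 members rose and 1 fell (10%), and the median was 0.02. Slc7a11, the cystine importer that feeds glutathione synthesis, was 5.4, 4.697, 3.353 and 1.889 CPM in C56BL6 and 42.99, 23.47, 33.56 and 41.37 CPM in wild (log2 fold change 3.20 ± 0.357 SE, adjusted p = 0.00249). Gsr, which regenerates glutathione, was 15.96 to 20.01 CPM in C56BL6 and 27.4 to 53.16 CPM in wild (adjusted p = 0.0271). Gstp1 rose together with its copy Gstp-ps, from a summed 78.75 ± 9.05 CPM to 146.9 ± 38 CPM. The microsomal transferase gene Mgst3 fell from 36.38 to 51.7 CPM to 13.63 to 25.05 CPM (adjusted p = 0.0225). Of the 8 fits that left out 1 library, Slc7a11 passed in all 8, Gsr in 4 and Mgst3 in 3. The oxidative stress genes Hmox1 and Nqo1 did not pass. Without the 2 libraries that stood apart, 5 members rose and 6 fell (12.8% of all genes passed there), and leaving out 1 library at a time gave 1 to 4 higher and 0 to 2 lower. In the list of xenobiotic and aldehyde enzymes, none of 32 rose and 2 fell (6.25%), with a median of 0.17. Aldh1a1, a retinaldehyde dehydrogenase gene, was 211.6, 291.2, 213 and 228.1 CPM in C56BL6 and 44.14, 26.67, 68.73 and 36.63 CPM in wild (log2 fold change -2.42 ± 0.288 SE, adjusted p = 0.00342). Cyp2j9 was the other, and it passed in 3 of the 8 fits that left out 1 library. Leaving out 1 library at a time gave 1 to 5 lower and none higher, with 5 without C56BL6 replicate 1, and leaving out both libraries that stood apart gave 3 higher and 8 lower.

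Of 17 measured complement genes, 4 rose and none fell (23.5% called), with a median of 0.19. For 3 of the 4, a near-identical neighbour carried most of the counts. C1s2 rose from 0.8774 to 3.527 CPM to 47.16 to 107.5 CPM, but summed with C1s1 it was 648.2 ± 189 CPM in C56BL6 and 544.8 ± 199 CPM in wild. C1rb rose from 0.27 to 2.676 CPM to 24.41 to 59.05 CPM, and with C1ra the sum was 333.8 ± 126 and 375.5 ± 132 CPM. C4a rose from 0.6075 to 1.437 CPM to 5.322 to 10.6 CPM, and with C4b the sum was 253.9 ± 179 and 240.1 ± 90.4 CPM. The sums of all 3 pairs overlapped between the populations. Cfi, a protease that inactivates complement fragments, was the fourth, at most 0.5668 CPM in C56BL6 and 3.249 to 8.198 CPM in wild. Leaving out 1 library at a time gave 2 to 4 calls, all higher.

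Of 17 measured genes of MHC class I and its loading, 2 rose and none fell (11.8%), with a median of 0.04. H2-T10, a nonclassical class I gene, was 0.9113 to 1.7 CPM in C56BL6 and 13.87 to 23.51 CPM in wild (adjusted p = 0.00036). H2-T22, which matches H2-T10 at 97.4% identity over 46.6% of the shorter transcript, averaged 79.33 CPM in C56BL6 and 46.62 CPM in wild, and the sum was 80.57 ± 6.75 and 65.17 ± 14.4 CPM. H2-Q2 had 0 counts in C56BL6 and 0.6769 to 1.176 CPM in wild. Interferon-stimulated genes gave 1 call among 29 (Trim30a, lower; 3.45%, against 2.89% of all genes) and a median of -0.01. That call was lost without wild replicate 4 and without C56BL6 replicates 2, 3 or 4. The interferon-inducible GTPases gave 1 call among 15 (6.67%, against 2.89% of all genes), the low Gvin1. It fell from 0.8437 to 2.708 CPM in C56BL6 to at most 0.1005 CPM in wild, and it has 4 near-identical copies.

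Genes that are known to differ between mouse strains were measured as a group. None of the 8 tested passed in edgeR, 2 had an unadjusted p under 0.05, and DESeq2, run without the expression filter, called 1 higher and 1 lower among 11. Apobec3, an antiviral deaminase gene, was 4.857 to 15.66 CPM in C56BL6 and 23.12 to 33.39 CPM in wild (adjusted p = 0.054). Iigp1 was 4.893 to 21.57 CPM in C56BL6 and 0.09025 to 1.909 CPM in wild (adjusted p = 0.0621). Both were separate between the populations. Ly6a, Ly6c1, Glo1, Mx2, Tgtp1 and Tgtp2 had adjusted p between 0.503 and 0.900. The mitochondrial transhydrogenase gene Nnt reached at most 0.33 CPM and Mx1 at most 0.225 CPM in the 8 libraries, and H2-Ea had 0 counts; none of these 3 was tested.

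No member passed in 10 further lists by edgeR. DESeq2 was run without the expression filter, on 26659 genes of which 1223 passed (4.59%), so its counts rest on more members of some lists. Proliferation genes gave 0 of 37, with a median of -0.02 and 0 members at an unadjusted p under 0.05, and DESeq2 called none. Collagens gave 0 of 28, with a median of 0.53 and 6 members under that unadjusted p, and DESeq2 called 2 of 36. Matrix glycoproteins gave 0 of 47 with a median of 0.36, 8 members under the unadjusted p and 7 DESeq2 calls among 49. Myofibroblast genes gave 0 of 20 with a median of 0.49, 6 under the unadjusted p and 2 DESeq2 calls. Without the 2 libraries that stood apart, 10 of 28 collagens rose and 2 fell, and 10 of 20 myofibroblast genes rose. In that setting 12.8% of all genes passed. There 4 of 29 secretory genes rose and 7 fell, 3 of 47 matrix glycoprotein genes rose and 5 fell, and 1 of 37 proliferation genes rose. Of 30 Hox genes 5 rose and 2 fell, of 24 TGF-beta and BMP genes 5 rose and 3 fell, and of 32 Wnt genes 1 rose and 5 fell. No adipogenic or mitochondrially encoded gene passed there.

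The secretory, Hox, TGF-beta and BMP, Wnt, adipogenic and mitochondrially encoded lists had medians of 0.25, 0.12, 0.10, 0.05, -0.25 and 0.03, with 9, 5, 6, 3, 3 and 1 members at an unadjusted p under 0.05. DESeq2 called 2 of 35, 3 of 36, 3 of 30, 2 of 38, 0 of 21 and 0 of 15 members. Cilp, a matrix protein gene, was 477.3, 1326 and 512.8 CPM in wild replicates 1, 2 and 4, and 6.129 CPM in wild replicate 3, below the C56BL6 range of 8.903 to 22.69 CPM. Dcn and Lum, small proteoglycan genes of connective tissue, had log2 fold changes of -2.86 and -4.49 and did not pass (adjusted p = 0.115 and 0.0841). The matrix metalloproteinase gene Mmp3 was 1728 CPM in wild replicate 3 and at most 4.67 CPM in the other 7 libraries. Among developmental genes that mark body position, Pax3 was the 1 call among 28 (3.57%, near the 2.89% of all genes), with a median of -0.25.

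Called genes other than pseudogenes formed 3 runs of at least 4 with gaps of no more than 500000 bases. On chromosome 4 (147216495 to 147953273, GRCm39), 7 of 8 tested genes passed, most of them KRAB zinc finger genes, a family that silences transposons. Zfp979 rose from 1.147 to 2.883 CPM to 13.04 to 19.59 CPM, and Zfp985 and Zfp534 also rose. Zfp984 fell from 13.44 to 17.77 CPM to 0.361 to 3.483 CPM, and Zfp991, Gm20707 and Miip also fell. Of the 7, 2 have a near-identical copy. Gm20707, a long noncoding RNA gene, overlaps Zfp984, and the counting command recorded no strand setting, so their reads cannot be told apart. On chromosome 17 (34170973 to 35042440), within the MHC, 5 of 32 passed: H2-DMb2, Prrt1 and C4a rose, and Rps18 and H2-DMb1 fell. Of these 5, 4 have a near-identical copy. H2-DMb1, a class II peptide-loading gene, was 8.797 to 16.74 CPM in C56BL6 and 0.7341 to 2.708 CPM in wild, and with its near-identical neighbour H2-DMb2 the sum was 12.81 ± 3.25 and 2.395 ± 1.51 CPM. On chromosome 1 (170846489 to 171216166), 5 of 17 passed: Fcgr4 and Nectin4 rose, and Cfap126, Pcp4l1 and Apoa2 fell. These genes were chosen by their calls, and the runs are a description.

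The same populations were compared in cultures labelled passaged at 12 d, where 2080 of 13870 genes passed (15%), and in untreated cultures at 24 h, where 803 of 13872 passed (5.79%). Of the 398 genes, 370 were tested among the passaged cultures, 362 had the same direction and 293 also passed, which is 73.6% of the 398 and 14.1% of the 2080. At 24 h, 361 of 370 had the same direction and 241 also passed, 60.6% of the 398 and 30% of the 803. The libraries differ but the animals are the same, so these comparisons do not add animals. The called pseudogenes passed again in 100 and 99 of the 100 that were tested. Called genes without a near-identical copy passed again in 164 of 231 and 122 of 233.

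**Figure D5:**
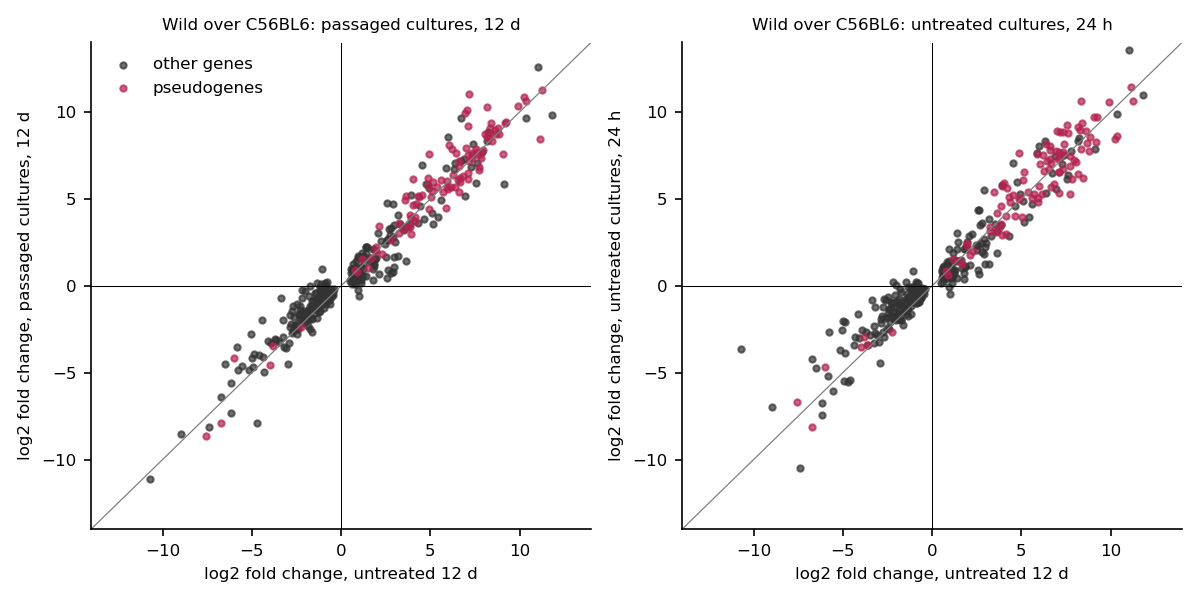
Each point is a gene that passed in untreated cultures at 12 d; the x axis gives its log2 fold change of wild over C56BL6 there and the y axis that in passaged cultures at 12 d (left) or untreated cultures at 24 h (right), with the line of equal values. Pseudogenes lie along the line, and other genes scatter around it.

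The cholesterol genes were then set beside the same comparison in the other cultures. In passaged cultures the 23 genes had a median log2 fold change of 0.02, with 3 higher and none lower, and at 24 h 0.04, with 1 higher and none lower. Sqle had log2 fold changes of 0.16 and 0.24 there, and Hmgcs1 -0.12 and -0.15. The difference between the untreated and passaged comparisons was tested as an interaction. Without a block, no cholesterol gene passed (median -0.86), and 1 gene passed among 14818 (0.00675%). The untreated and passaged libraries of 1 animal deviated together (correlations of 0.46 to 0.81 over 8 animals). With the animal as a replicate block, 555 genes passed (3.75%), among them 11 of the 23 cholesterol genes, all more negative in untreated cultures. Blocked adjusted p was 0.011 for Sqle, 0.016 for Hmgcs1 and 0.02 for Stard4.

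The p53 targets had a negative median in both other comparisons: -0.56 in passaged cultures, with 8 lower and none higher, and -0.45 at 24 h, with no call. Cdkn1a had log2 fold changes of -1.37 (adjusted p = 0.0027) and -0.91 (adjusted p = 0.14). With the block, 1 of 24 passed the interaction, Sesn1, and Cdkn1a had an adjusted p of 0.0503. Aldh1a1 had log2 fold changes of -2.46 and -2.50 in passaged cultures and at 24 h. Slc7a11 was 1.72 and 1.27 there, and Gsr 0.16 and 0.17, with blocked interaction p of 0.026 and 0.0064.

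Rap1gap2, which encodes a GTPase-activating protein of Rap1, was the gene that passed the interaction without the block. It was 8.032, 6.694, 8.022 and 7.242 CPM in untreated C56BL6 cultures and 29.87, 55.28, 54.33 and 39.05 CPM in untreated wild cultures (log2 fold change 2.57 ± 0.216 SE, adjusted p = 0.000655). In passaged cultures its log2 fold change was 0.46 and did not pass (adjusted p = 0.072). The difference of the 2 changes was 2.13 ± 0.26 SE (adjusted p = 0.0135, and 0.00206 with the block). Without the block, Rap1gap2 passed in 3 of the 8 interaction fits that left out 1 animal, with its untreated and its passaged library. Such fits were not run with the block.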

How the data were processed

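The authors deposited raw read counts per gene. Per the file header they were made with featureCounts 2.0.3 on GRCm39 with an Ensembl gene annotation, with no strand option and no counting of reads that align to several places. Trimming with Trim Galore and alignment with HISAT2 come from the submitters' processing notes, and their versions are not given in the sources used here. Of 56980 gene IDs, 56236 matched a GENCODE symbol of the reference used here, which is a different annotation release, and 4239 on chromosomes X and Y were left out.

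Genes were filtered with filterByExpr, scaled by TMM and tested with edgeR 4.0.16 (quasi-likelihood, R 4.3.3) between the groups given by the titles, with Benjamini-Hochberg adjustment over all genes tested and a threshold of 0.05. Levels are in CPM, counts scaled to the library total. Intervals and floors (3 counts) cover counting error only. In simulated data on 13569 genes this test recovered 22% of genes changed by a log2 of 1, 88% at 2 and 98% at 4, with 1 false call. The changed genes were drawn from those with a mean above 5 CPM, so recovery at lower levels was not tested. Simulated libraries varied independently, without the closeness of wild replicates 1 and 4. Near-identical copies were found with blastn 2.17.0 on the longest GENCODE transcripts (at least 95% identity, 50% of the shorter transcript and 150 bases).

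The members, gene lists and tests were chosen with earlier results of these data known. Named genes were the 8 protein-coding genes with the largest change in each direction (separate populations, a mean of at least 5 CPM, no predicted gene model), the 3 members of each list with the smallest adjusted p, all measured strain-variable genes, and the largest interaction genes; other genes named were chosen after their values were seen. Replicate numbers name different animals in the populations, and same-numbered libraries did not deviate together (correlations of -0.15 to 0.03). Kept and passaged libraries of 1 animal did (0.46 to 0.81, from the animal codes in the library names). Alternatives were RLE scaling, no expression filter, DESeq2 1.42.0 without the expression filter, a replicate block, all 8 mouse groups at 12 d in one fit, chromosomes X and Y kept, wild replicates 1 and 4 summed, and leaving out each replicate. Single values of 2 cholesterol genes are not reported here.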

Additional observations from a re-analysis of the deposited data

Results flagged for a closer look

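In 9 of 139 sets of 4 values, 1 library lay farther from the others than Dixon's 95% limit for 4 values allows; chance gives about 1 in 20. In wild replicate 3, Ly6a was 32.76 CPM, Ly6c1 was 0.2679 CPM and Mmp3 was 1728 CPM. In C56BL6 replicate 1, the summed keratinocyte markers were 958 CPM, Raet1d was 35.57 CPM and the homeobox gene Alx4 was 5.197 CPM. In C56BL6 replicate 2, the p53 targets Phlda3 and Zmat3 were 214.6 and 161.6 CPM. In wild replicate 2, the mitochondrially encoded gene mt-Atp6 was 47.7 CPM. The population difference in Rap1gap2 was larger in kept than in passaged cultures, by 2.13 on the log2 scale, in the test of that difference (edgeR adjusted p = 0.0135).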

How the results depend on the processing

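In untreated cultures at 12 d, 398 genes passed. DESeq2, run in each comparison without the expression filter, so that test and filter changed together, gave 1223, a replicate block 130, all 8 mouse groups in one fit 1435, wild replicates 1 and 4 summed 261, and C56BL6 replicate 1 and wild replicate 3 both left out 1777. Leaving out 1 replicate gave 214 to 874. In passaged cultures, 2080 became 3293 by DESeq2, 529 with a replicate block and 921 to 3088 without 1 replicate. At 24 h, 803 became 1859, 221 and 388 to 903. The interaction gave 1, then 119 by DESeq2 and 555 with a replicate block. Leaving out 1 animal, in fits without the block, gave 0 to 21. Under the replicate block 124 of the 398 untreated calls were kept. Values of single genes kept their direction and side of the threshold in 1100 pairs of gene and setting, newly passed in 88 and no longer passed in 85. Glo1 changed sign from -0.05 to 0.0 with wild replicates 1 and 4 summed and to 0.03 without wild replicate 4 (-0.12 to 0.03 without 1 replicate). Tgtp1 changed sign from 0.30 to -0.39 without wild replicate 3 and to -0.33 with C56BL6 replicate 1 and wild replicate 3 left out (-0.39 to 0.52 without 1 replicate). The cause of these changes was not tested. With 4 animals per population, changes of a log2 of 1 were mostly missed in simulated data, and genes under 1 CPM rest on few reads.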
